A study of Oryza longistaminata with 12 samples.

Results

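The 7 genes described here encode the enzymes from glucose-6-phosphate isomerase to glyceraldehyde-3-phosphate dehydrogenase in *Oryza longistaminata*, a wild rice whose young plants (ramets) stay joined by a rhizome. They are *OlGPI* (OL03T003308, glucose-6-phosphate isomerase), *OlPFK5* (OL05T002151, phosphofructokinase), *OlPFPB* (OL06T000911, pyrophosphate-dependent phosphofructokinase), *OlALDC1* (OL01T004030, aldolase), *OlTPI1* (OL01T000318) and OL01T003601 (both triosephosphate isomerase), and *OlGAPC1* (OL02T002091, glyceraldehyde-3-phosphate dehydrogenase). They were selected because the study lists them as higher in +N split than in +N roots, so their difference between these groups is given as a description and without a test. All 7, of 29335 gene models in the count table, passed the filter on low counts that left 25005 genes.

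Glycolysis splits glucose into pyruvate in the cytosol, and yields ATP, NADH and carbon skeletons. In its first section, glucose-6-phosphate is isomerised and phosphorylated, and the resulting fructose-1,6-bisphosphate is cleaved into triose phosphates, which glyceraldehyde-3-phosphate dehydrogenase then oxidises. Plants carry out the phosphorylation of fructose-6-phosphate with either of a pair of enzymes, one that uses ATP and one that uses pyrophosphate, and in roots the carbon skeletons made further down the pathway accept the ammonium taken up.

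The libraries came from roots of paired ramets of strain IRGC10404, grown with NH4Cl as the only nitrogen source and then treated for 24 h, with 3 libraries in each of 4 groups. In −N split, the root received 0 mM NH4Cl and its partner 2.5 mM, and in −N both roots received 0 mM. In +N split, the root received 2.5 mM and its partner 0 mM, and in +N both roots received 2.5 mM. For −N replicate 1, the treatment field describes a split pair although its title and source name read −N, and it was kept in −N by its title. The study's methods give independently prepared pairs as the replicates of its graphed experiments, while the labels do not say this of the sequenced libraries. The p-values therefore set group differences against the spread between these libraries, estimated over all groups. Whether they extend to independent pairs is not known. The labels also leave unsaid whether −N split and +N split libraries of the same number are the partners of the same pairs.

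Between 39071838 and 56252511 reads were counted per library. Normalised expression is given as CPM, the counts of a gene relative to the library total after TMM scaling (trimmed mean of M values). A gene was called where the quasi-likelihood test of edgeR gave a Benjamini-Hochberg adjusted p under 0.05 over the 25005 genes. The 3 genes described as root or root cap genes were detected in every group, with summed levels of 189 to 217 CPM in −N split roots, 257 to 325 CPM in −N roots, 199 to 253 CPM in +N split roots and 176 to 255 CPM in +N roots. One of them, the root cap gene OL01T004499, was lower in −N split than in −N (log2 fold change −2.21, SE 0.515, adjusted p = 0.0332), and the other 2 were not called there (0.29 for OL03T003355 and −0.71 for OL01T000879). Few reads fell on OL01T004499, with counts of 10, 23 and 24 in −N split and 98, 171 and 32 in −N. In −N against +N, OL01T000879 was higher (0.79, adjusted p = 0.0145) and OL03T003355 lower (−0.56, adjusted p = 0.000939). The 20 photosynthesis genes on the list of other tissue summed to 616 to 2016 CPM in −N split roots, 1409 to 2066 CPM in −N roots, 1409 to 3468 CPM in +N split roots and 2279 to 2951 CPM in +N roots. On average, 18 of the 20 were lower in −N split than in −N, of which 1 passed the test, and all 20 were lower in −N than in +N (median log2 fold change −0.56, 1 called), the side on which the glycolysis genes also lay. All 20 were lower on average in +N split than in +N as well, where the glycolysis genes were higher. The part of these markers in the results was not tested. Fewer cells of a type and less RNA per cell cannot be told apart in whole roots.

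The 7 genes had the same order of mean levels. Each was highest in +N split, followed by +N, −N and −N split. Together they took 0.269% to 0.365% of the counts in −N split libraries, 0.509% to 0.596% in −N, 1.68% to 1.93% in +N split and 0.922% to 1.11% in +N. The ranges of these shares did not overlap between any of the groups. For +N split and +N, the order and the separation are part of the selection of the genes. *OlGAPC1* and *OlALDC1* had the most counts of the 7 in every group, so the shares mostly reflect these genes. Since gene lengths were not used here, levels are compared within a gene and not between genes.

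**Figure D1:**
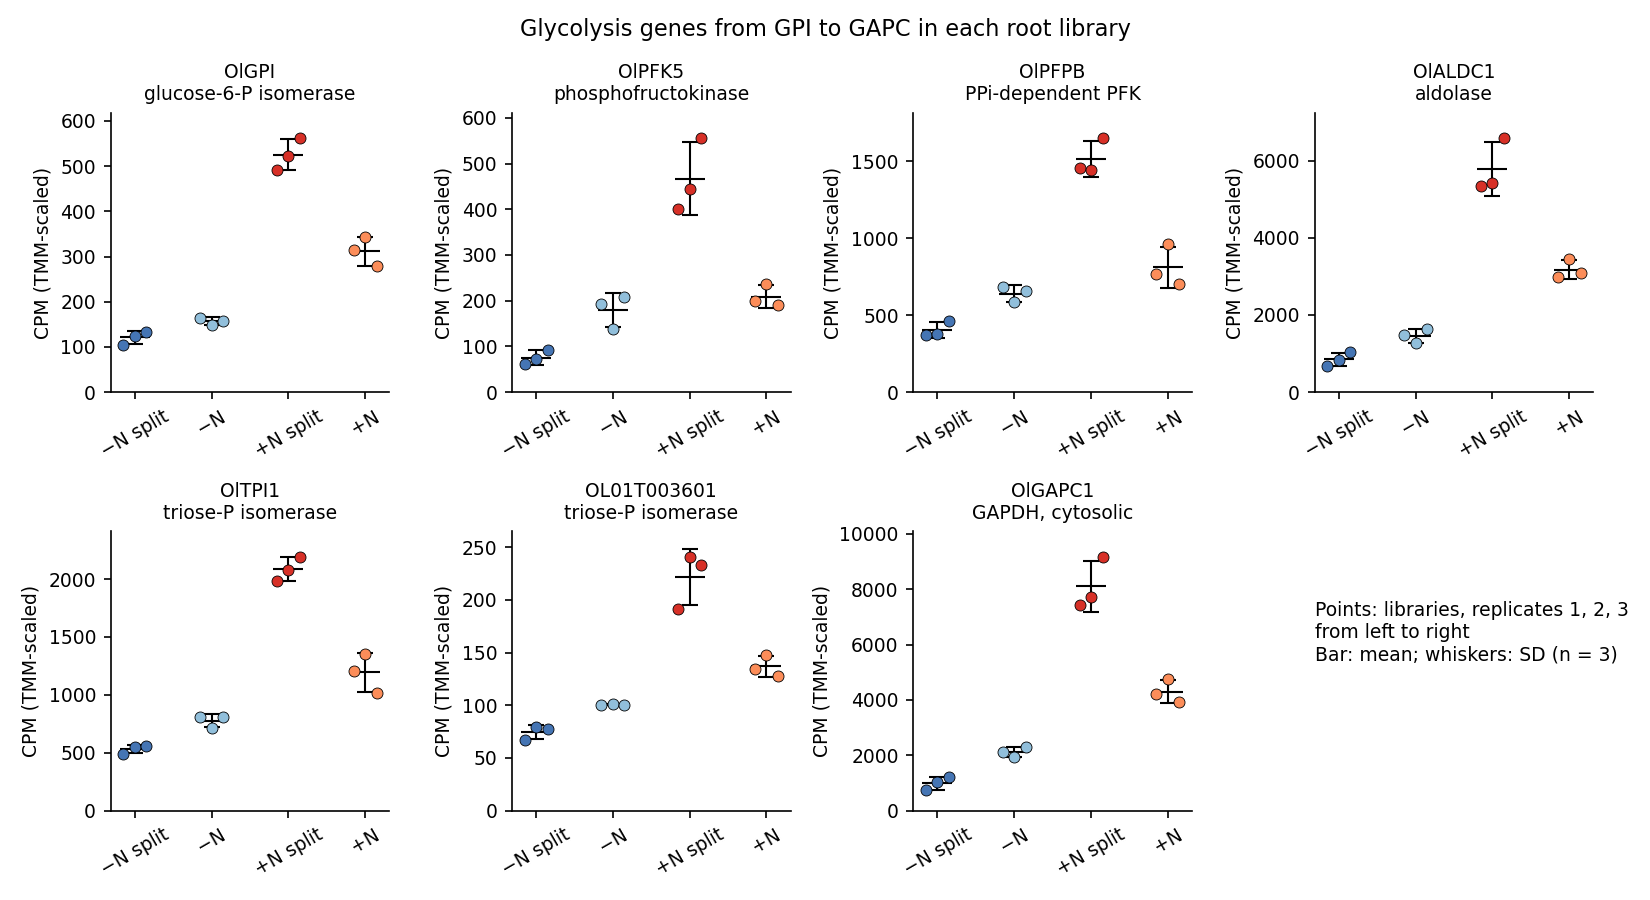
TMM-scaled CPM (vertical axis, linear from 0, a scale for each gene) of the 7 genes in −N split, −N, +N split and +N roots, with a point for each library and the mean and SD (n = 3) in black. In every panel the +N split libraries lie above all others and the −N split libraries below all others. *OlPFK5* is the gene whose −N and +N libraries overlap.

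*OlGPI* encodes glucose-6-phosphate isomerase, which converts glucose-6-phosphate into fructose-6-phosphate and so feeds hexose phosphates into the pathway. Its level was 105, 125 and 133 CPM in −N split, against 165, 148 and 158 CPM in −N. In +N split it was 492, 522 and 561 CPM, against 314, 342 and 279 CPM in +N. No library of one group lay within the range of another. In −N split *OlGPI* had 77.3% of its −N level, which did not pass the test (log2 fold change −0.37, SE 0.104, adjusted p = 0.0705). Its −N level was 50.3% of its +N level (log2 fold change −0.99, SE 0.105, adjusted p = 6.7e-05).

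*OlPFK5* encodes a phosphofructokinase, the enzyme class that commits hexose phosphate to glycolysis. Its level was 61.4, 71.8 and 92.6 CPM in −N split, against 193, 137 and 209 CPM in −N. In +N split it was 401, 445 and 555 CPM, against 199, 237 and 189.7 CPM in +N. The −N libraries overlapped those of +N, whereas −N split lay below and +N split above both. Its level in −N split was 41.9% of that in −N (log2 fold change −1.26, SE 0.186, adjusted p = 0.00255). Between −N and +N the difference did not pass the test (log2 fold change −0.21, 95% interval −0.61 to 0.18, adjusted p = 0.47).

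*OlPFPB* encodes the pyrophosphate-dependent phosphofructokinase, which catalyses the same conversion reversibly. Its level was 372, 379.9 and 462 CPM in −N split, against 682, 582 and 658 CPM in −N. In +N split it was 1457, 1443 and 1649 CPM, against 769.8, 960.3 and 705 CPM in +N. The 4 groups did not overlap, but −N replicate 1 came within a small distance of +N replicate 3. The level in −N split was 63.1% of that in −N (log2 fold change −0.66, SE 0.127, adjusted p = 0.0114). The −N level was 78.9% of the +N level, which did not pass the test (log2 fold change −0.34, 95% interval −0.61 to −0.07, adjusted p = 0.0789).

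*OlALDC1* encodes an aldolase, which cleaves fructose-1,6-bisphosphate into dihydroxyacetone phosphate and glyceraldehyde-3-phosphate. Its level was 689, 828 and 1033 CPM in −N split, against 1469.8, 1265.5 and 1624 CPM in −N. In +N split it was 5346, 5431 and 6581 CPM, against 2985, 3446 and 3099 CPM in +N. All 4 groups were separate. The level in −N split was 58.5% of that in −N (log2 fold change −0.77, SE 0.149, adjusted p = 0.012). The level in −N was 45.7% of that in +N (log2 fold change −1.13, SE 0.15, adjusted p = 0.000331).

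*OlTPI1* and OL01T003601 encode triosephosphate isomerases, which interconvert the triose phosphates. *OlTPI1* had 489, 551 and 555 CPM in −N split, against 806, 714 and 813 CPM in −N, and 1987, 2082 and 2192 CPM in +N split, against 1204, 1355 and 1019.7 CPM in +N. OL01T003601 had 67.4, 79.2 and 77.3 CPM in −N split, against 100.2, 101 and 100.1 CPM in −N, and 192, 241 and 233 CPM in +N split, against 135, 148 and 128 CPM in +N. The groups were separate for both genes. *OlTPI1* had 68.4% of its −N level in −N split (log2 fold change −0.55, SE 0.108, adjusted p = 0.0134), and OL01T003601 had 74.3% (log2 fold change −0.43, SE 0.0981, adjusted p = 0.0296). Both were also lower in −N than in +N, *OlTPI1* at 65.2% of the +N level (adjusted p = 0.00196) and OL01T003601 at 73.4% (adjusted p = 0.00737). OL01T003601 had the smallest mean difference of the 7 between +N split and +N.

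*OlGAPC1* encodes glyceraldehyde-3-phosphate dehydrogenase, which oxidises the triose phosphate and reduces NAD+. Its level was 735, 1042 and 1205 CPM in −N split, against 2100.2, 1931 and 2295 CPM in −N. In +N split it was 7434, 7711 and 9171 CPM, against 4223, 4742 and 3914.5 CPM in +N. The groups did not overlap. The level in −N split was 47.1% of that in −N (log2 fold change −1.09, SE 0.162, adjusted p = 0.00279). In −N it was 49.1% of the level in +N (log2 fold change −1.03, SE 0.162, adjusted p = 0.00105).

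The comparison of −N split with −N asks what the supply of the partner changes in a root that itself receives no ammonium. It is the only comparison of groups that shares no library with the one that selected the genes, although −N split and +N split roots may be partners in the same pairs. The spread used in its test was estimated over all 12 libraries, those of +N split and +N included. The test is thus not wholly free of the values that selected the genes. Of the 7 genes, 6 fell and none rose, against 2.74% of all genes tested that were lower and 1.27% that were higher. The median log2 fold change was −0.66 over the 7 genes (range −1.26 to −0.37) and 0.02 over all genes tested. Every −N split library lay below every −N library for each of the 7. The share of all genes that separate in this way is not given here. This and the other statements that libraries did not overlap are therefore descriptions of the 7. *OlPFK5* and *OlGAPC1* kept their calls with any library left out and in every other alternative fit. The other calls depended on single libraries. Without −N replicate 1, whose labels conflict, *OlPFK5*, *OlALDC1* and *OlGAPC1* were called, 3 of the 7. Without −N split replicate 2 the 3 called were *OlPFK5*, *OlTPI1* and *OlGAPC1*, and without −N replicate 3 they were *OlPFK5*, *OlPFPB* and *OlGAPC1*. For exact permutation tests with 3 libraries against 3, the smallest two-sided p is 0.1.

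The genes were selected on +N split against +N, where the partner's supply differs for a root that receives ammonium. In that comparison the log2 fold changes were 0.75 for *OlGPI* (SE 0.104), 1.16 for *OlPFK5* (SE 0.185), 0.90 for *OlPFPB* (SE 0.127), 0.87 for *OlALDC1* (SE 0.149), 0.81 for *OlTPI1* (SE 0.108), 0.70 for OL01T003601 (SE 0.098) and 0.92 for *OlGAPC1* (SE 0.162). Their median was 0.87, and that of all genes tested was −0.02. On both sides of the design the root with a deprived partner had the higher level, +N split over +N and −N over −N split. For *OlPFK5* and *OlGAPC1* the difference in deprived roots was at least as large in size as that in supplied roots, and for the other 5 it was smaller in size. The sizes in supplied and deprived roots were not tested against each other. The published list that selected the genes also holds 8 other glycolysis genes not among the 7, with values that ran from 1.11 for the phosphofructokinase gene OL05T000593 and 0.93 for *OlPFP1α3* (OL08T000976) to 0.49 for the enolase gene *OlENO1* (OL10T000304) and 0.48 for the glyceraldehyde-3-phosphate dehydrogenase gene OL02T000468. Some of them thus lay below OL01T003601, the lowest of the 7. Outside that list, the listed glycolysis gene with the highest value was the hexokinase gene OL05T000567 (0.61, SE 0.271), whose +N split and +N libraries overlapped.

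**Figure D2:**
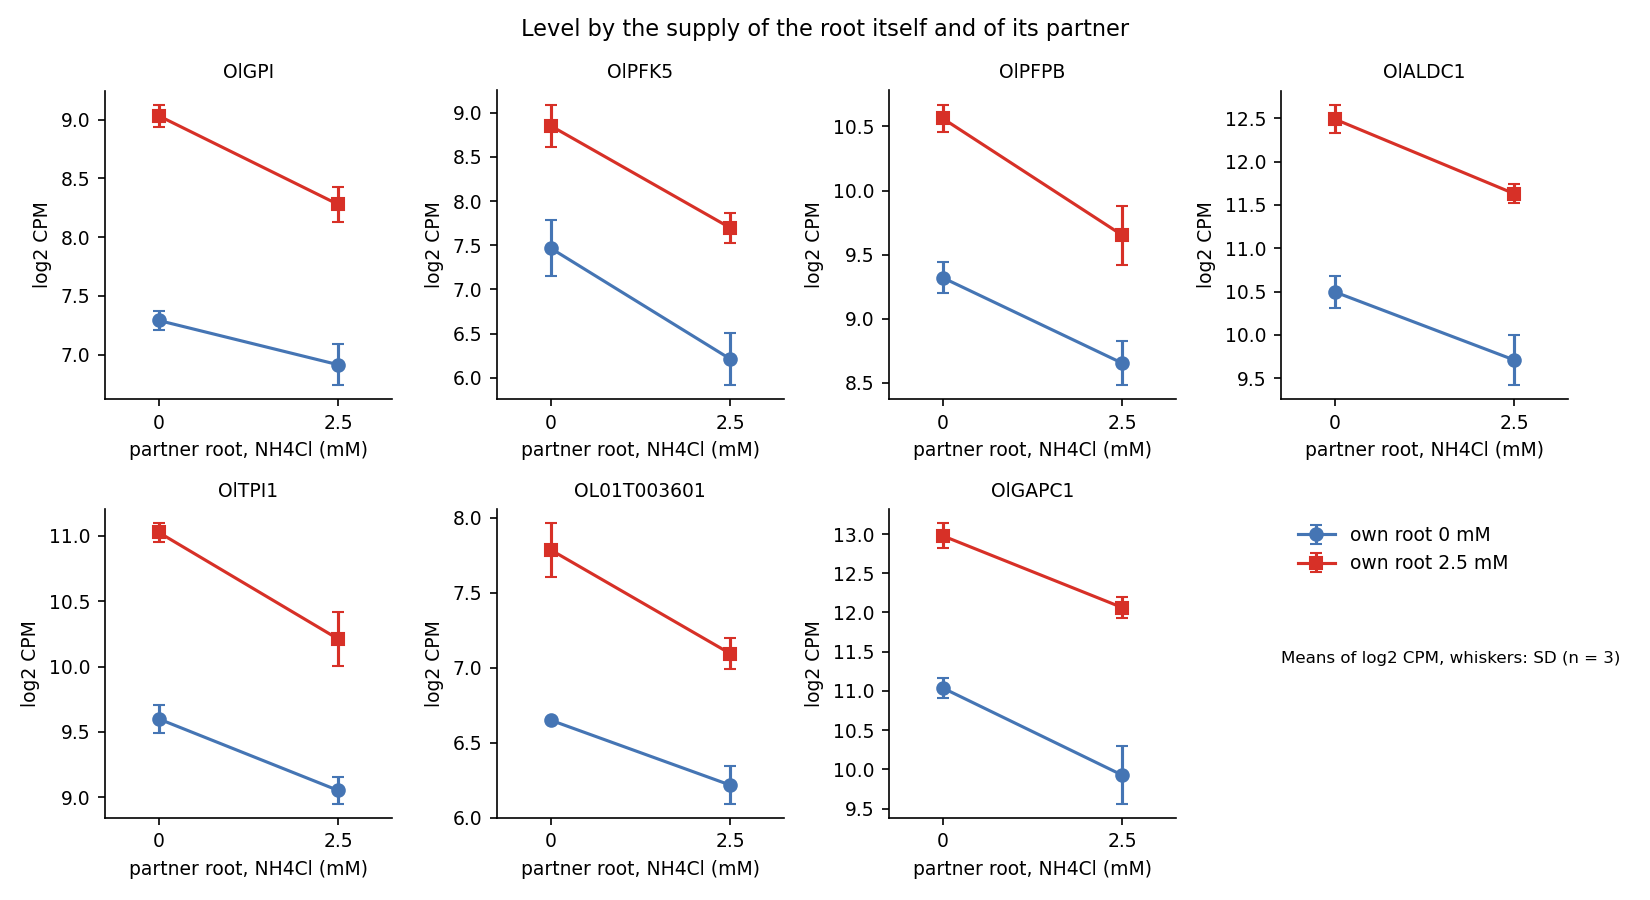
Mean log2 CPM (vertical axis, a scale for each gene) of the 7 genes against the NH4Cl supply of the partner root (horizontal axis, mM), for roots that themselves received 0 mM (blue circles) or 2.5 mM (red squares), with the SD over 3 libraries as whiskers. All lines slope down towards the supplied partner, and the blue lines drop most, in log2 units, for *OlPFK5* and *OlGAPC1*. The red lines show the comparison that selected the genes.

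The comparison of −N with +N asks how deprivation of the whole pair differs from full supply. *OlGPI*, *OlALDC1*, *OlTPI1*, OL01T003601 and *OlGAPC1* fell, 5 of the 7, and none rose, against 10.3% of all genes that were lower and 8.84% that were higher. The median log2 fold change of the 7 was −0.62 (range −1.13 to −0.21), against 0 over all genes. The 2 genes that were not called, *OlPFK5* and *OlPFPB*, both encode enzymes that phosphorylate fructose-6-phosphate. They were not tested against the 5 called, and the missing calls are not a trait of that step. Of 9 other listed phosphofructokinase genes, 7 were lower here and 2 were not called. The 1 other gene listed as pyrophosphate-dependent phosphofructokinase was higher. This comparison shares the +N libraries with the one that selected the genes, and low +N values favoured selection. The photosynthesis markers given above lay on the same side.

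In −N split against +N the partner was supplied in both groups and the root itself was not supplied in −N split. All 7 genes fell, against 12.2% of all genes that were lower and 11% that were higher. The log2 fold changes ran from −2.11 for *OlGAPC1* (SE 0.167, adjusted p = 7.16e-06) to −0.88 for OL01T003601 (SE 0.0985, adjusted p = 9.23e-05), with a median of −1.36. *OlPFPB* had 49.9% of its +N level, and *OlALDC1* 26.8%. The +N libraries are shared here too. The photosynthesis markers had a median of −1.10 here, with 20 of 20 below 0, of which 2 were called.

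In −N split against +N split, both sides of split pairs, the median difference was the largest of the 5 comparisons tested. All 7 genes fell, against 15.6% of all genes that were lower and 16.8% that were higher, with a median log2 fold change of −2.12. *OlGAPC1* had 12.3% of its +N split level in −N split (log2 fold change −3.03, SE 0.173, adjusted p = 2.58e-07), *OlALDC1* 14.7% (−2.77, SE 0.158) and *OlPFK5* 16.1% (−2.63, SE 0.194). OL01T003601 changed least, to 33.7% (−1.57, SE 0.1). In −N against +N split, where the partner was deprived in both groups, all 7 fell as well, against 12% of all genes that were lower and 12.2% that were higher, with log2 fold changes of −1.99 for *OlALDC1* (SE 0.154) to −1.14 for OL01T003601 (SE 0.0988) and a median of −1.42. Both comparisons share the +N split libraries, whose high values were part of the selection. In each of them 19 of the 20 photosynthesis markers lay below 0. Their median was −0.85 in −N split against +N split (2 called) and −0.40 in −N against +N split (0 called).

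**Figure D3:**
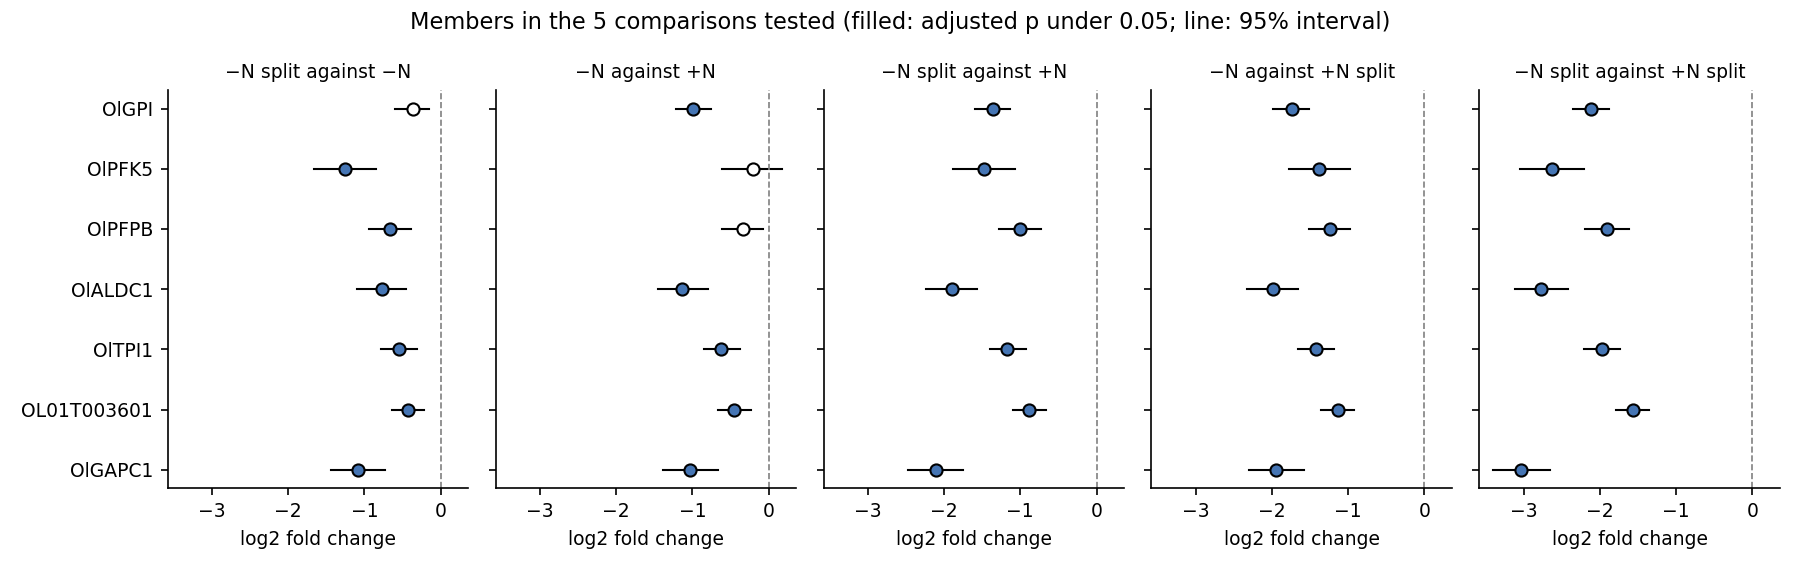
Log2 fold changes (horizontal axis) of the 7 genes in the 5 comparisons tested, with 95% intervals as lines, and with filled points at an adjusted p under 0.05 in edgeR's quasi-likelihood test. The open points are *OlGPI* in −N split against −N, and *OlPFK5* and *OlPFPB* in −N against +N. All points lie below 0, and the interval of *OlPFK5* in −N against +N crosses it.

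The 7 genes also varied together between libraries of the same group. Expressed as deviations from the group mean of log2 CPM, the 21 pairs of genes had a median Pearson r of 0.79 over the 12 libraries (0.49 to 0.95), and the median over all pairs of genes tested was 0. *OlPFK5* and *OlALDC1* had the highest value, and *OlPFPB* and OL01T003601 the lowest. The median over all pairs takes in genes with few counts and was not matched to the 7 in level or in response to the groups. It therefore does not show that such values are particular to the 7. These points share libraries and scaling factors, so r is a description. All 7 genes lay above their group mean in −N split replicate 3, +N split replicate 3 and +N replicate 2, and all 7 lay below it in −N split replicate 1, +N split replicate 1 and +N replicate 3. The mean deviation was 0.20 and −0.22 in the −N split libraries just named, 0.14 and −0.12 in those of +N split, and 0.17 and −0.14 in those of +N. In −N it lay between −0.14 in replicate 2 and 0.09 in replicate 3.

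Listed genes of ethanolic fermentation and oxygen sensing moved with these deviations. The list was drawn from descriptions in published tables of changed genes, whose values had been seen. All 6 of its genes were higher on average in +N split than in +N (median log2 fold change 1.33), like the 7. Their levels across the groups are therefore not independent evidence. The list holds 3 alcohol dehydrogenase genes and 2 pyruvate decarboxylase genes, which regenerate NAD+ from pyruvate when oxygen is short, and 1 gene for a plant cysteine oxidase, an enzyme that senses oxygen. The mean deviation of these 6 genes was 0.42 in −N split replicate 3 and −0.52 in −N split replicate 1, and over the 12 libraries it had r = 0.96 with the mean deviation of the 7 glycolysis genes. No value for other gene lists is given beside this r, which is a description. Reads shared between the alcohol dehydrogenase models OL11T000556 and unmappedContigsT000545 could be split by the counting, since sequences were not compared. Summed, the 6 genes reached 1778 to 3134 CPM in −N split roots, 6132 to 8647 CPM in −N roots, 15802 to 21476 CPM in +N split roots and 6107 to 8291 CPM in +N roots. In −N split against −N, 5 of the 6 fell, against 2.74% of all genes tested that were lower. The median log2 fold change of the 6 was −1.91. Among them the pyruvate decarboxylase gene OL05T001771 had 71.6, 302 and 319 CPM in −N split, against 2210.1, 1333 and 2177 CPM in −N (log2 fold change −3.05, SE 0.449, adjusted p = 0.00252). The alcohol dehydrogenase gene OL11T000555 had 61.9, 62.1 and 98.0 CPM in −N split, against 493, 300.3 and 425 CPM in −N (log2 fold change −2.46, SE 0.233, adjusted p = 0.000174). In −N against +N, 1 of the 6 fell and 1 rose, the alcohol dehydrogenase gene OL11T000555 and the cysteine oxidase gene OL09T001188. Of all genes tested, 10.3% were lower there and 8.84% higher. The part of oxygen supply in the levels of the glycolysis genes was not tested.

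**Figure D4:**
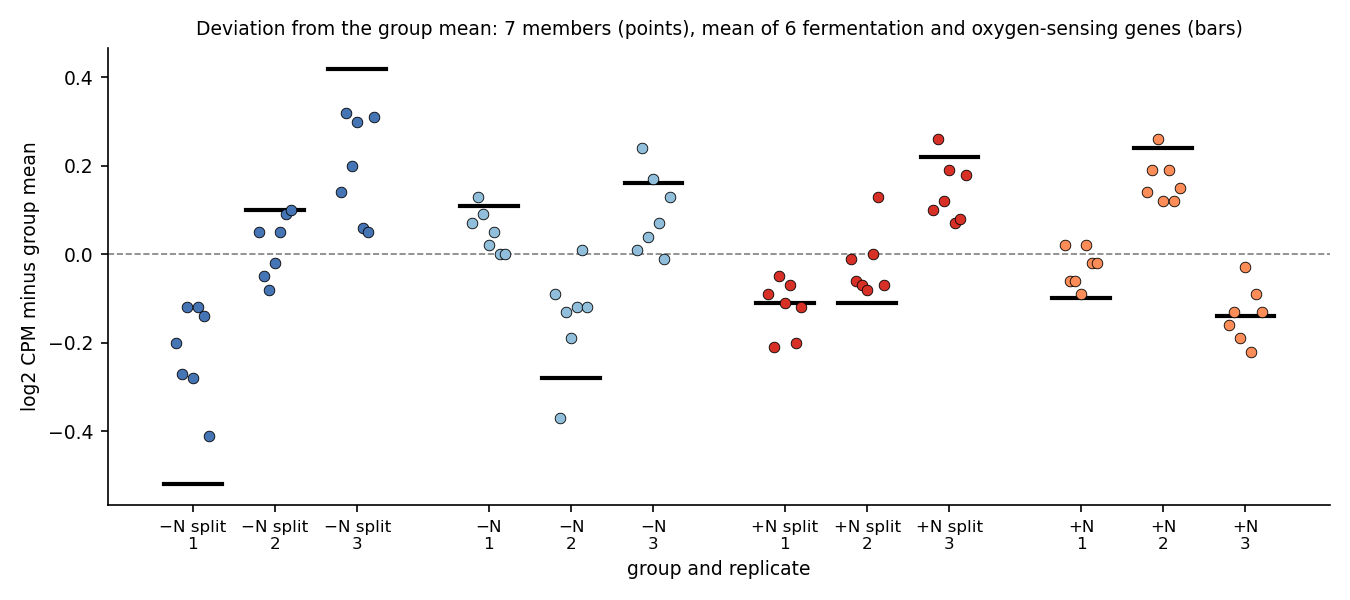
Deviation of log2 CPM from the mean of the group (vertical axis) in each of the 12 libraries, for the 7 glycolysis genes (points) and as the mean of the 6 fermentation and oxygen-sensing genes (black bars). The points of a library lie on the same side of 0 for all 7 genes in 6 libraries, and the bars lie on the side of the mean of the points in all 12.

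The rest of the pathway was described from 34 further gene models annotated as glycolytic enzymes. They were collected from published lists of genes that differ from +N, so their counts in comparisons with +N are not independent evidence of direction. Whether each acts in the cytosol or in plastids was not assessed. Some varied between libraries as photosynthesis genes did. The glyceraldehyde-3-phosphate dehydrogenase gene OL04T001301 had 23.2, 30.1 and 70.0 CPM in +N split. There the chlorophyll a-b binding gene OL02T000682 had 35.5, 46.1 and 112 CPM. In −N split against −N, 4 of the 34 were lower and 4 higher, 26 were not called, and the median log2 fold change was −0.12. The 4 that fell were the glucose-6-phosphate isomerase gene OL06T000956 (−0.59, SE 0.0866), *OlPFP1α3* (−0.92, SE 0.152), the triosephosphate isomerase gene unmappedContigsT001015 (−0.53, SE 0.104) and the phosphoglycerate kinase gene OL06T002239 (−0.59, SE 0.119). The 4 that rose were the phosphofructokinase gene OL10T000754 (0.77, SE 0.0919), the glyceraldehyde-3-phosphate dehydrogenase gene OL02T000468 (0.44, SE 0.0787), the phosphoglycerate kinase gene OL10T000930 (0.61, SE 0.133) and the enolase gene OL03T000999 (0.43, SE 0.106). Of the 8 genes that stand in the same published list as the 7, 3 fell (OL06T000956, *OlPFP1α3* and unmappedContigsT001015), 1 rose (OL02T000468) and 4 were not called. Phosphofructokinase, glyceraldehyde-3-phosphate dehydrogenase and phosphoglycerate kinase thus had genes on both sides, with *OlPFK5* and *OlGAPC1* on the lower one.

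In −N against +N, 24 of the 34 were lower, 2 were higher and 8 were not called, with a median log2 fold change of −0.72. *OlPFP1α3* was among those not called (−0.31, SE 0.151, adjusted p = 0.179), like *OlPFK5* and *OlPFPB*. Other phosphofructokinase genes fell here, among them OL05T000593 (−2.40, SE 0.211), OL09T000342 (−1.65, SE 0.211) and OL10T000754 (−1.04, SE 0.092). The 2 that rose were OL02T002860 (0.84, SE 0.182), listed like *OlPFPB* as pyrophosphate-dependent phosphofructokinase, and the pyruvate kinase gene OL01T002472 (0.71, SE 0.133). *OlPFP1α3* was listed under phosphofructokinase, although it shares the letters PFP with *OlPFPB*. The aldolase gene OL08T000134 had the lowest value of the list (−3.35, SE 0.431), and in −N split against −N it was not called at 0.69, on the other side of 0 from *OlALDC1*. Of the 34 genes, 22 were lower and 2 higher in −N split against +N, 26 and 2 in −N split against +N split, and 28 and 2 in −N against +N split.

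**Figure D5:**
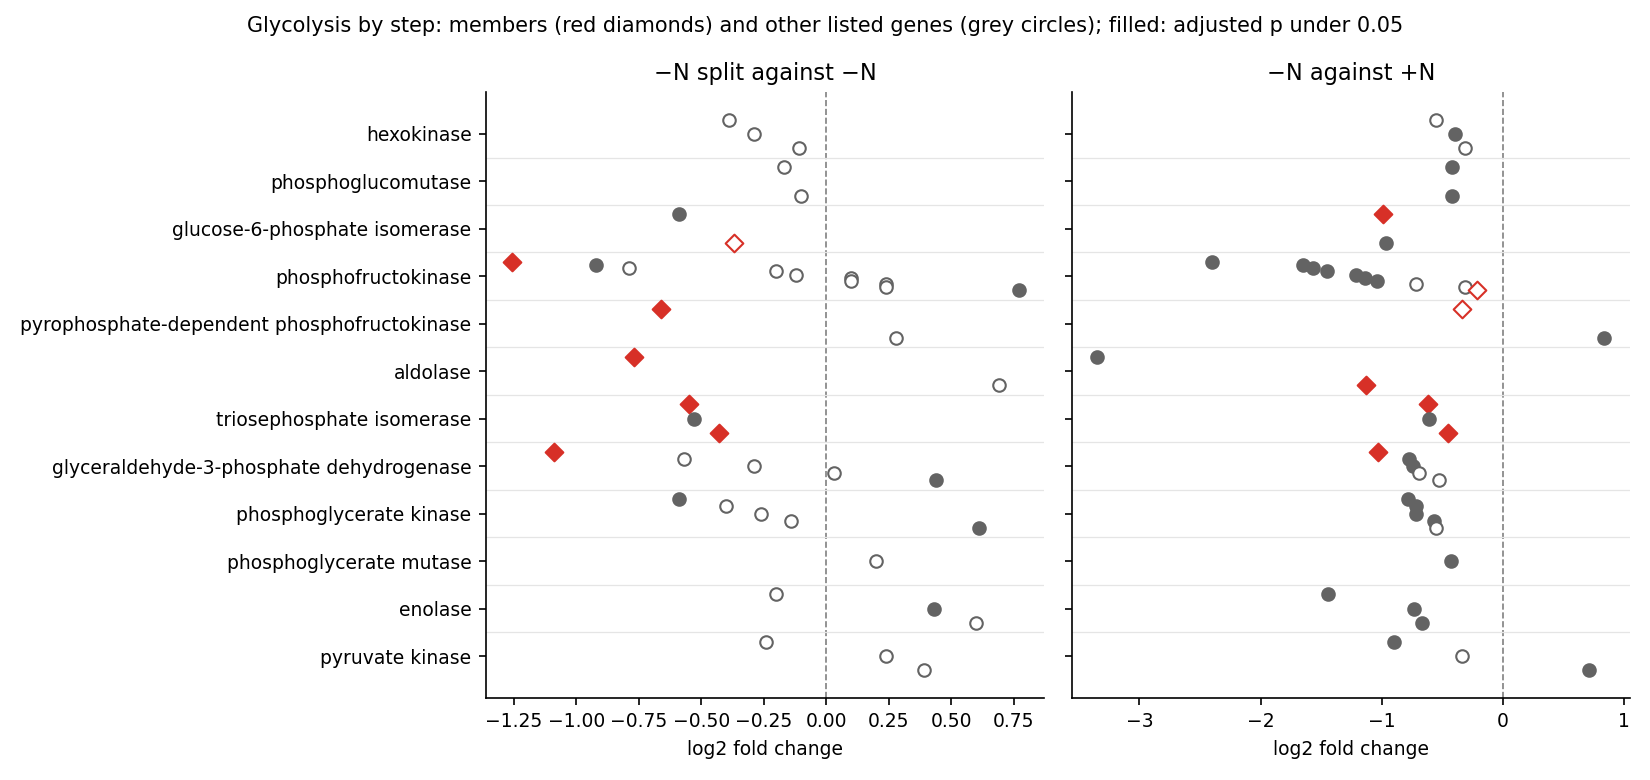
Log2 fold changes (horizontal axis, a scale for each panel) by step of glycolysis in −N split against −N and in −N against +N, for the 7 genes (red diamonds) and the 34 other listed genes (grey circles), filled at an adjusted p under 0.05. In −N split against −N all diamonds lie below 0 and the circles spread over both sides. In −N against +N, 32 of the 34 circles lie below 0.

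The genes whose log2 CPM over the 12 libraries was most like the mean pattern of the 7 were ranked among 14104 genes with a mean of at least 10 CPM. The first was unmappedContigsT001015 (r = 0.996), annotated as triosephosphate isomerase, with 520.01 ± 38.3 CPM in −N split roots, 751 ± 48.9 CPM in −N roots, 1946 ± 44.7 CPM in +N split roots and 1145 ± 159.6 CPM in +N roots (SD, n = 3 each). These means resemble those of *OlTPI1*, which were 532 ± 36.9, 777 ± 55.3, 2087 ± 102 and 1193 ± 168 CPM in the same groups. Sequences were not compared here, so reads shared between these 2 gene models could be split by the counting, and their values are uncertain to that extent. The next was OL03T003830 (r = 0.995), an aspartokinase gene of the pathway to lysine, threonine and methionine, with 59.1 ± 9.04 CPM in −N split roots, 121 ± 23.8 CPM in −N roots, 829 ± 98.5 CPM in +N split roots and 245 ± 51.9 CPM in +N roots. It was followed by OL11T000248 (r = 0.994), for which no description was read, and by OL01T003791 (r = 0.993) and unmappedContigsT001247 (r = 0.991), both annotated as magnesium transporters. These correlations rest mainly on the 4 groups, which are part of the selection, and are a description.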

How the data were processed

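Root mRNA libraries were mapped with HISAT2 and reads counted per gene model with featureCounts, per the study's methods, and the authors deposited unnormalised counts for the 12 libraries. The authors also deposited log2 CPM of each library, which equal edgeR's log2 CPM of these counts (largest difference 4.99e-09) and were not tested. The sources used here do not give versions, the strand setting or the handling of multiply mapped reads. The counts were filtered with filterByExpr (minimum count 10, minimum total 15), scaled by TMM (factors 0.922 to 1.07) and fitted in edgeR 4.0.16 (R 4.3.3) with a mean per group over all 12 libraries, with glmQLFTest and Benjamini-Hochberg adjustment. Log2 CPM used a prior count of 2. The lowest count of any of the 7 genes was 2778. Chi-square per gene between replicates was 20.7 to 49.9, so no library was a copy. The script was tested on simulated data. Members and gene lists were chosen with earlier results of these data known, the lists from descriptions in published tables. Named genes are the 7, the listed genes described by step, and the 5 most alike in pattern. Alternatives were other scalings, filters, thresholds, DESeq2 1.42.0, edgeR's likelihood ratio test, only the 6 libraries compared, a replicate block, and each library left out. No genome, gene length or sequence was used.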

Additional observations from a re-analysis of the deposited data

How the results depend on the processing

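No direction of the 7 genes reversed under any alternative. In −N split against −N, where 6 of 7 genes were called, 3 to 6 were called with a library left out, 2 at an adjusted p under 0.01 and 2 at a change of at least 2-fold. In −N against +N, where 5 were called, 2 were called at a change of at least 2-fold. Over the 7 genes in the 5 comparisons tested, 685 of 700 alternative values kept their side of the threshold, 12 lost the call and 3 gained it. *OlGPI* in −N split against −N was called by the DESeq2 Wald test (adjusted p = 0.0216) and by edgeR's likelihood ratio test (adjusted p = 0.0395), and *OlPFPB* in −N against +N without +N replicate 3 (adjusted p = 0.0466). OL01T003601 lost its call in −N split against −N without any one of the 6 libraries compared, at an adjusted p of up to 0.0937. Without TMM, the median log2 fold change of all genes moved to 0.14 in −N split against +N split and to 0.11 in −N against +N split, from 0.02 and 0.01. The labels do not say whether libraries of the same number come from the same ramet pairs. Correlations of deviations between same-numbered libraries were −0.16 to 0.23. For +N split and +N their mean was 0.15, against −0.07 between libraries of different number. For +N and −N it was 0.09 against −0.05. For +N split and −N split it was 0.02 against −0.01, and for −N split and −N −0.06 against 0.03. These values are mixed and do not settle whether the numbers link libraries. With the replicate block 6, 5, 7, 7 and 7 genes were called in the 5 comparisons, as many as without it. With 3 libraries a group, the precision is set by the spread between libraries rather than by counts.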
